A study of Mus musculus with 6 samples.

Results

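The genes by which a cell takes up thyroid hormone, activates it and answers to it were examined in pancreatic islets, as 9 genes of 19505 named on the array. They were taken by gene symbol and comprise the receptors Thra and Thrb, the deiodinases Dio1, Dio2 and Dio3, the transporter Slc16a10, and the hormone-responsive genes Klf9, Hr and Thrsp, each measured by 1 of 22206 gene probe sets. Islet RNA came from 3 Control (Wt) and 3 Pax8 +/- samples. By the methods of the study, which give them for its mice in general, these were males of the C57BL/6 background, 9 months old at collection and fasted for 16 hours, and Pax8 +/- mice carry a germline disruption of 1 copy of Pax8 in every cell. Pax8 is the transcription factor with which thyroid follicular cells form and make hormone, and the heterozygous mice served as a model of mild hypothyroidism. Islets were collected with collagenase and picked by hand, and whether 1 mouse or a pool gave each sample is not in the labels. P-values therefore cover the spread among the 6 samples only, some of which may be technical.

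The thyroid releases mostly T4, a prohormone, which enters cells through membrane transporters and is turned into the active T3 by removal of an iodine atom from its outer ring. Removal of an iodine from the inner ring instead inactivates the hormone. T3 binds the receptors TRα and TRβ, which sit on DNA with a retinoid X receptor and, without hormone, recruit corepressors. In the rodent pancreas, thyroid hormone is known to promote the maturation of beta cells after birth.

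Expression was measured on Clariom S arrays and deposited as log2 values after RMA, a method that subtracts background, brings all arrays to a shared distribution and summarizes the probes of a set. A level was called above background where it exceeded 95% of the 5222 negative control probe sets of its own array, a limit between 7.60 and 7.97. By this measure 2 of the 9 genes, Klf9 and Slc16a10, were above background on all 6 arrays, where 21.7% of all gene probe sets were. Thra and Dio1 were above it on 3 arrays and the other 5 genes on none. The negative controls have a long upper tail. Their 99th percentile was 11.93 to 12.35, and none of the 9 genes reached it on any array. The number of arrays limits the precision, since the smallest p that an exact permutation of 3 against 3 samples allows, 2-sided, is 0.1.

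**Figure D1:**
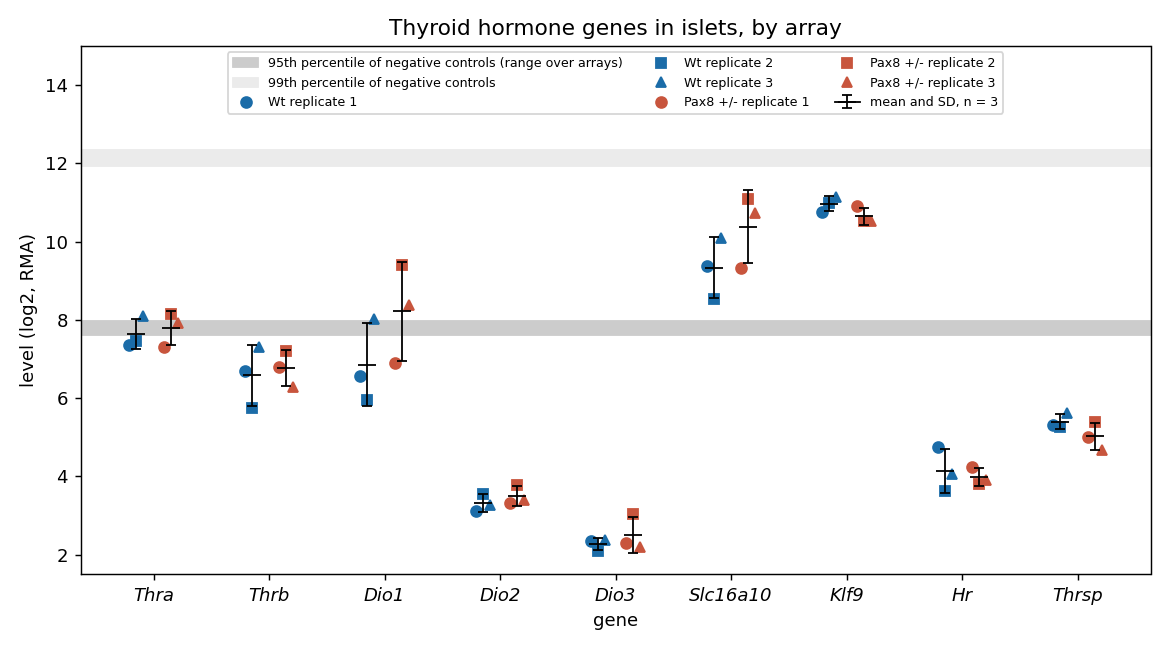
Log2 level (vertical axis) of the 9 genes (horizontal axis) on each of the 3 Wt and 3 Pax8 +/- arrays, with the mean and SD of each group. The dark band is the range over arrays of the 95th percentile of the negative controls, the light band that of the 99th, and only Slc16a10 and Klf9 lie above the dark band on all 6 arrays.

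The arrays do not separate by genotype alone, and this touches every result that follows. On the mean level of 11 measured beta-cell markers, Wt replicate 3 (13.87) and Pax8 +/- replicates 2 and 3 (14.74 and 14.85) stood above Wt replicates 1 and 2 (12.62 and 11.40) and Pax8 +/- replicate 1 (12.47). The mean of 16 hypoxia targets, genes switched on by HIF1, was 8.92 and 8.73 on Pax8 +/- replicates 2 and 3 and 11.33 to 12.86 on the other 4 arrays. Other lists were also lowest on those 2 arrays. Their means there were 10.82 and 10.63 for duct markers, 8.42 and 8.46 for endothelial markers, and 7.48 and 7.78 for immediate early and dissociation stress genes. The acinar, mesenchymal and adipocyte marker means were lowest there too, while the macrophage marker mean was not. The islet hormone genes Ins2 and Gcg read the highest value of every array, and so did the acinar genes Cel, Cpa1 and Prss2, so that none of these can be compared. The part of these lists in the results was not tested. Pax8 itself was below background on all 6 arrays and gives no check of the genotype. Whole islets were measured, so that fewer cells of a type and less RNA per cell cannot be told apart.

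Promoter sequences were available in a RefSeq table for 7 of the 9 genes. The receptors bind hexamers with the consensus AGGTCA, classically as a direct repeat with a spacer of 4 bases, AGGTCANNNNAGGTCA. Shown here are the 250 bases before the annotated start (GRCm38.p6) of the genes on which the results turn, Klf9, Slc16a10 and Dio1, and of Thrb at the upstream of its 2 listed starts. Capitals mark AGGTCA on either strand.
Klf9, chr19:23140976-23141225, plus strand: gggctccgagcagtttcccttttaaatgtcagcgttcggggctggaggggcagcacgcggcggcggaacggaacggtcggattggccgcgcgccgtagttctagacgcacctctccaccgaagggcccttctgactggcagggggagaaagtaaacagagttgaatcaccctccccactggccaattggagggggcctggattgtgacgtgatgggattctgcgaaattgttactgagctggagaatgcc
Slc16a10, chr10:40142255-40142504, minus strand: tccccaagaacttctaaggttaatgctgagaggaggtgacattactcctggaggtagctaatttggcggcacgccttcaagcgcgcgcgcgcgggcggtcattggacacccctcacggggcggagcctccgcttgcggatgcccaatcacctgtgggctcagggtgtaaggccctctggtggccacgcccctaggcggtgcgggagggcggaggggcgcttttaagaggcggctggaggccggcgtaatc
Dio1, chr4:107307169-107307418, minus strand: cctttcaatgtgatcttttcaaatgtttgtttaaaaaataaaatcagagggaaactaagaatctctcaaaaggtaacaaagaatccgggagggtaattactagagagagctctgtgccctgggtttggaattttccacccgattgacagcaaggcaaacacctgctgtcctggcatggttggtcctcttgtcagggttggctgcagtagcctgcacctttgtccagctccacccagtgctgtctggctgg
Thrb, chr14:17660710-17660959, plus strand: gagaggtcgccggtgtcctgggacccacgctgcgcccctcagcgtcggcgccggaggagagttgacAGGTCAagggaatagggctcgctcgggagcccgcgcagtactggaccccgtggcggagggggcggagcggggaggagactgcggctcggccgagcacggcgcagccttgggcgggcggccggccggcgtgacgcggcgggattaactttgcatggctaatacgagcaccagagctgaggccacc
The hexamer was found on either strand in 1 of the 8 windows of the 7 genes, that of Thrb, where it begins 184 bases before the start, and in 14.0% of all 32851 windows. The direct repeat was in none of the 8, and in 5 of all windows. A match describes letters and is not a binding site, and elements farther from the start are not covered.

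None of the 9 genes differed between genotypes at the thresholds of the study, a fold change of at least 2.5 with an unadjusted p of at most 0.05, which 1% of all gene probe sets passed (0.648% higher and 0.351% lower in Pax8 +/- islets). At an unadjusted p of at most 0.05 without a fold change, again 0 of the 9 passed, beside 5.91% of all probe sets. Their groups overlapped for all 9, while 9.66% of all probe sets had groups that did not. The median log2 difference of the 9, Pax8 +/- minus Wt, was 0.17, beside -0.01 over all probe sets, with 6 means higher and 3 lower. No probe set at all reached an adjusted p under 0.05 in limma (smallest adjusted p = 0.745), beside 1312 at an unadjusted p of at most 0.05. An ordinary linear model also gave 0 at an adjusted p under 0.05.

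**Figure D2:**
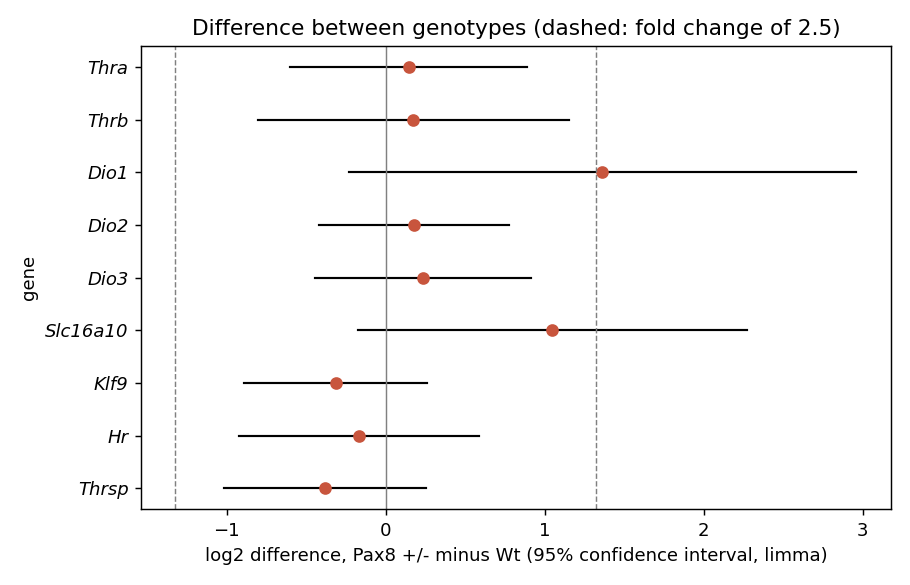
Log2 difference between the group means, Pax8 +/- minus Wt (horizontal axis), for the 9 genes (vertical axis), with the 95% confidence interval from limma. All 9 intervals include 0, and the difference of Dio1 (1.36) is the only point beyond a dashed line, which marks a fold change of 2.5.

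Of the receptors, Thra, which encodes TRα and predominates in heart, bone and brain, lay at the edge of background. Its log2 level was 7.37, 7.46 and 8.09 on Wt replicates 1, 2 and 3 and 7.30, 8.14 and 7.91 on Pax8 +/- replicates 1, 2 and 3. The 3 arrays above background were Wt replicate 3 and Pax8 +/- replicates 2 and 3, the same arrays on which the beta-cell markers were high, and the part of those markers in this was not tested. The difference was 0.14 (standard error 0.33, 95% confidence interval -0.60 to 0.89, adjusted p = 0.937 in limma), smaller than the spread between replicates. The files do not say whether the probe set tells the hormone-binding product of Thra from the splice variant that binds none.

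In the RefSeq table Thra overlaps Nr1d1, the clock repressor REV-ERBα, which is read from the opposite strand. Nr1d1, named here because of this overlap, was at 9.20, 9.11 and 8.51 on the Wt arrays and 8.80, 7.09 and 7.58 on the Pax8 +/- arrays. Its difference was -1.12 (standard error 0.44, unadjusted p = 0.035 and adjusted p = 0.745 in limma), short of a fold change of 2.5. Nr1d1 was above background on 4 arrays and under it on Pax8 +/- replicates 2 and 3, so that the size of the difference is approximate. On those arrays the hypoxia and duct lists were also lowest, and the part of these lists in this was not tested. The neighbours therefore ran in different orders over the arrays, Nr1d1 lowest on Pax8 +/- replicate 2 where Thra was highest.

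Thrb, which encodes TRβ, the main receptor of liver and pituitary, was below background on all 6 arrays. It read 6.71, 5.75 and 7.30 in Wt and 6.79, 7.21 and 6.28 in Pax8 +/- islets, so that the Wt values spanned the Pax8 +/- range on both sides. The difference of 0.17 had a 95% confidence interval from -0.80 to 1.15. Between 78.3% and 94.2% of the negative controls on an array lay under Thrb.

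Dio1 showed the largest difference of the 9 genes. Its enzyme, the type 1 deiodinase, can remove iodine from either ring and is abundant in liver, kidney and thyroid, and in rodent liver its gene is raised by T3. The Wt arrays read 6.58, 5.95 and 8.03 and the Pax8 +/- arrays 6.89, 9.39 and 8.37. Wt replicate 3 stood above Pax8 +/- replicate 1, so that the groups overlapped. The Wt mean was 6.85 ± 1.07 (SD, n = 3) and the Pax8 +/- mean 8.22 ± 1.26 (SD, n = 3). They differed by 1.36 on the log2 scale (standard error 0.70, 95% confidence interval -0.23 to 2.96) or 2.57-fold, at an unadjusted p = 0.085 and an adjusted p = 0.745 in limma. A difference at least this large was found for 1.72% of all probe sets. Dio1 was above background on 1 Wt and 2 Pax8 +/- arrays, and with readings under background in both groups its fold is approximate. The call turned on the choice of arrays: it passed the thresholds of the study without Wt replicate 3 (1.95) or without Pax8 +/- replicate 1 (2.03), and with array weights (1.83). Without Pax8 +/- replicate 2 the difference was 0.78, and without Wt replicate 2 it was 0.91.

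The other deiodinases were at the floor of the scale. Dio2, whose enzyme makes T3 from T4 inside cells, read 3.12, 3.56 and 3.28 in Wt and 3.32, 3.78 and 3.40 in Pax8 +/- islets. Dio3, whose enzyme inactivates T4 and T3, read 2.34, 2.09 and 2.38 in Wt and 2.30, 3.03 and 2.19 in Pax8 +/- islets. At most 38.4% of the negative controls of an array lay under Dio2 and at most 20.3% under Dio3, so that neither transcript was detectable here and no fold is given.

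Slc16a10 encodes MCT10, a carrier of aromatic amino acids and of thyroid hormones, and was above background throughout. The level was 9.38, 8.52 and 10.08 on the Wt arrays and 9.33, 11.08 and 10.72 on the Pax8 +/- arrays. Pax8 +/- replicates 2 and 3 were above every Wt array, while Pax8 +/- replicate 1 was under Wt replicate 1. Means of 9.33 ± 0.78 (SD, n = 3) and 10.38 ± 0.93 (SD, n = 3) gave a log2 difference of 1.05 (standard error 0.53, 95% confidence interval -0.18 to 2.27), or 2.07-fold, at an unadjusted p = 0.084 and an adjusted p = 0.745 in limma. It passed the thresholds of the study without Wt replicate 3 (1.43) or without Pax8 +/- replicate 1 (1.58), and in no other leave-out. Without Wt replicate 2 the difference was 0.65, and without Pax8 +/- replicate 2 it was 0.70.

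Among 4273 named probe sets above background on all arrays and more than 1 log2 unit under the top of the scale, the closest to Slc16a10 were Vamp2, a vesicle protein of regulated secretion (Pearson r = 0.999 over 6 arrays), Tbc1d22b (r = 0.999) and Pax6, a transcription factor of endocrine cells (r = 0.998). Such values are common here, as 14.5% of these probe sets had r above 0.9, and they describe 6 arrays that share 1 main pattern. Pax6 read 12.58, 11.41 and 13.53 in Wt and 12.68, 14.84 and 14.44 in Pax8 +/- islets. Slc16a10 and Dio1 had r = 0.98 with each other. The order of the arrays by Slc16a10 was that of the beta-cell marker mean except that Pax8 +/- replicates 2 and 3 changed places. The means of the alpha- and delta-cell markers put the arrays in other orders, but these lists had only 3 measured genes each. Gcg read the highest value of every array, Sst did so on Pax8 +/- replicates 2 and 3, and Irx2 and Hhex were below background throughout. These orders therefore cannot set beta cells apart from other endocrine cells. Of the 11 measured beta-cell markers, Ins2 and Iapp read the highest value of every array and give no direction. The means of the remaining 9 were all higher in Pax8 +/- islets, though 1 of them, Mafa, was below background on all arrays. Of the 11, 1 was higher and 0 lower at an unadjusted p of at most 0.05, beside 3.14% and 2.77% of all probe sets. By staining, a different measure, the paper reports a smaller percentage of insulin-positive cells in Pax8 +/- islets. The beta-cell list means were 11.40 to 13.87 in Wt and 12.47 to 14.85 in Pax8 +/- samples. The part of these markers in the values of Slc16a10 and Dio1 was not tested.

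**Figure D3:**
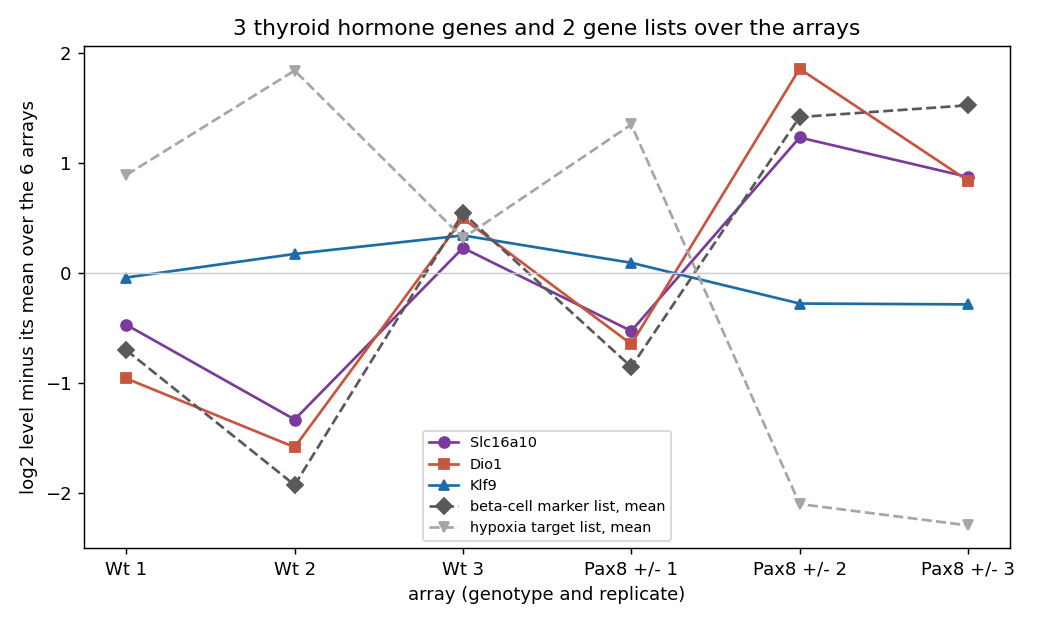
Log2 level minus its mean over the 6 arrays (vertical axis) for Slc16a10, Dio1, Klf9 and the means of 11 beta-cell markers and 16 hypoxia targets, by array (horizontal axis), where lines only guide the eye. Slc16a10 and Dio1 are highest on Pax8 +/- replicates 2 and 3 and lowest on Wt replicate 2, as is the beta-cell list apart from the order of those highest arrays, while Klf9 (10.52 to 11.15) varies least.

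Klf9, a zinc finger transcription factor that T3 induces in many tissues and that also answers to glucocorticoids, was the steadiest of the genes above background. Its level was 10.77, 10.98 and 11.15 on the Wt arrays and 10.90, 10.53 and 10.52 on the Pax8 +/- arrays. Pax8 +/- replicate 1 lay within the Wt range and replicates 2 and 3 below it. The means of 10.96 ± 0.19 (SD, n = 3) and 10.65 ± 0.22 (SD, n = 3) differed by -0.31 (standard error 0.25, adjusted p = 0.80 in limma). The 95% confidence interval of this difference, -0.89 to 0.26 on the log2 scale, does not reach a fold change of 2.5 in either direction. In the leave-outs the difference stayed between -0.44 and -0.22, and 42.2% of all probe sets had a difference at least as large as that of Klf9. The probe sets closest to Klf9 over the arrays were Aldh7a1 (r = 0.981), Fam98b (r = 0.979) and Epb41l5 (r = 0.976), and 1.36% of the same 4273 had r above 0.9.

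Hr and Thrsp, which respond to thyroid hormone in other tissues, were below background on all 6 arrays. Hr, a nuclear corepressor induced by T3 in rat brain, read 4.75, 3.63 and 4.07 in Wt and 4.23, 3.81 and 3.91 in Pax8 +/- islets, the Wt values spanning the others. Thrsp, also called Spot14, promotes fatty acid synthesis in liver and fat and read 5.31, 5.27 and 5.63 in Wt and 4.996, 5.39 and 4.68 in Pax8 +/- islets. The difference of Thrsp was -0.38 (standard error 0.28, 95% confidence interval -1.02 to 0.25), and the groups overlapped at Pax8 +/- replicate 2. Of 5 measured adipocyte markers, Fabp4 was above background on 4 arrays and Adipoq, Lep, Plin1 and Cidec on none, with list means of 4.72 to 4.97 in Wt and 4.38 to 5.14 in Pax8 +/- samples.

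Other genes of the pathway were read from lists chosen with earlier results of these data known. Of 10 measured other transporters, 1 was higher and 0 lower at an unadjusted p of at most 0.05, beside 3.14% higher and 2.77% lower of all probe sets, and the median difference was 0.08. The gene was Slc7a8, which encodes LAT2, a carrier of neutral amino acids that also moves thyroid hormones. It read 12.37, 12.06 and 14.71 in Wt and 13.98, 15.52 and 14.99 in Pax8 +/- islets, with Wt replicate 3 above Pax8 +/- replicate 1. The difference was 1.78 (standard error 0.70), or 3.44-fold, past the thresholds of the study at an unadjusted p = 0.032, with an adjusted p = 0.745 in limma. Leaving out Wt replicate 1 (1.45) or 2 (1.29), or Pax8 +/- replicate 2 (1.44) or 3 (1.70), ended the call, as did a fit without empirical Bayes moderation. Slc7a8 put the arrays in the same order as Dio1. It was highest on Pax8 +/- replicates 2 and 3 and Wt replicate 3, the arrays on which the beta-cell markers were high. The part of those markers in the values of Slc7a8 was not tested. Slc7a5 and Slc3a2, the LAT1 chain and its partner, were the other carriers above background on all arrays, with differences of 0.15 and -0.45. The OATP carriers and Slc10a1 and Slc17a4 were below background on all 6 arrays, among them Slco1a5 at a difference of 0.65.

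Of 14 measured receptor partners, 0 had an unadjusted p of at most 0.05, beside 5.91% of all probe sets. Their median difference was 0.12. Above background on all arrays were the coactivators Ncoa1, Med1, Ep300 and Crebbp, the deacetylase Hdac3 and the corepressor subunit Tbl1x, with differences from -0.32 for Hdac3 to 0.97 for Ncoa1. The retinoid X receptors Rxra, Rxrb and Rxrg were below background on all 6 arrays. Rxra was lower on each Pax8 +/- array (6.75, 6.33 and 6.71) than on any Wt array (7.14, 6.96 and 7.14), a difference of -0.49 (standard error 0.25, unadjusted p = 0.082 in limma) among readings under background. It was the only 1 of the 14 with groups that did not overlap, beside 9.66% of all probe sets. Rxrb differed by 0.59 with overlapping groups.

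Of 9 measured genes that bind or conjugate the hormone or make the selenocysteine which deiodinases need, 0 reached an unadjusted p of 0.05. The share of all probe sets was 5.91%, and the median difference of the 9 was 0.13. Sepsecs, an enzyme of selenocysteine synthesis, was nearest at 0.69 (unadjusted p = 0.105 in limma), above background on Wt replicate 3 and Pax8 +/- replicates 2 and 3. Ttr, a plasma carrier of T4 that alpha cells also make, differed by 0.78 with overlapping groups.

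Of 22 measured other targets, genes that thyroid hormone is known to raise in rodent tissues, 2 were higher and 0 lower at an unadjusted p of at most 0.05, beside the same 3.14% and 2.77% of all probe sets. The median difference was 0.20, and 12 means were higher and 10 lower. Groups did not overlap for 2 of the 22, beside 9.66% of all probe sets. Fasn, the fatty acid synthase, read 7.50, 7.23 and 7.59 in Wt and 7.86, 8.65 and 8.65 in Pax8 +/- islets, so that the groups did not overlap. Every Wt reading was under background and every Pax8 +/- reading above it. The readings as deposited differed by 0.95 (standard error 0.30), at an unadjusted p = 0.013 and an adjusted p = 0.745 in limma, and did not pass the thresholds of the study. With the Wt arrays held at the lowest signal above background, the means of these 6 readings differed 1.49-fold, a value that has no interval. The split at background was narrow. Wt replicate 3 read 7.59 beside a limit of 7.60, and Pax8 +/- replicate 1 read 7.86 beside a limit of 7.78. Mlxipl, the glucose-responsive factor ChREBP, differed by 2.41 (standard error 1.03) and passed the thresholds of the study. Its readings were 6.69, 5.62 and 8.33 in Wt and 6.88, 10.74 and 10.24 in Pax8 +/- islets, with Wt replicate 3 above Pax8 +/- replicate 1. Those of Wt replicates 1 and 2 and Pax8 +/- replicate 1 were under background, so that the size of the difference is approximate. Without Pax8 +/- replicate 1 it was 3.61. The call ended without Wt replicate 1 (2.31) or 2 (1.78), or Pax8 +/- replicate 2 (1.68) or 3 (1.93). Mlxipl also put the arrays in the same order as Dio1, highest on the arrays on which the beta-cell markers were high. The part of those markers in the values of Mlxipl was not tested. Mafa, a beta-cell factor that thyroid hormone raises in rat islets, was below background on all arrays, with a difference of 0.55.

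**Figure D4:**
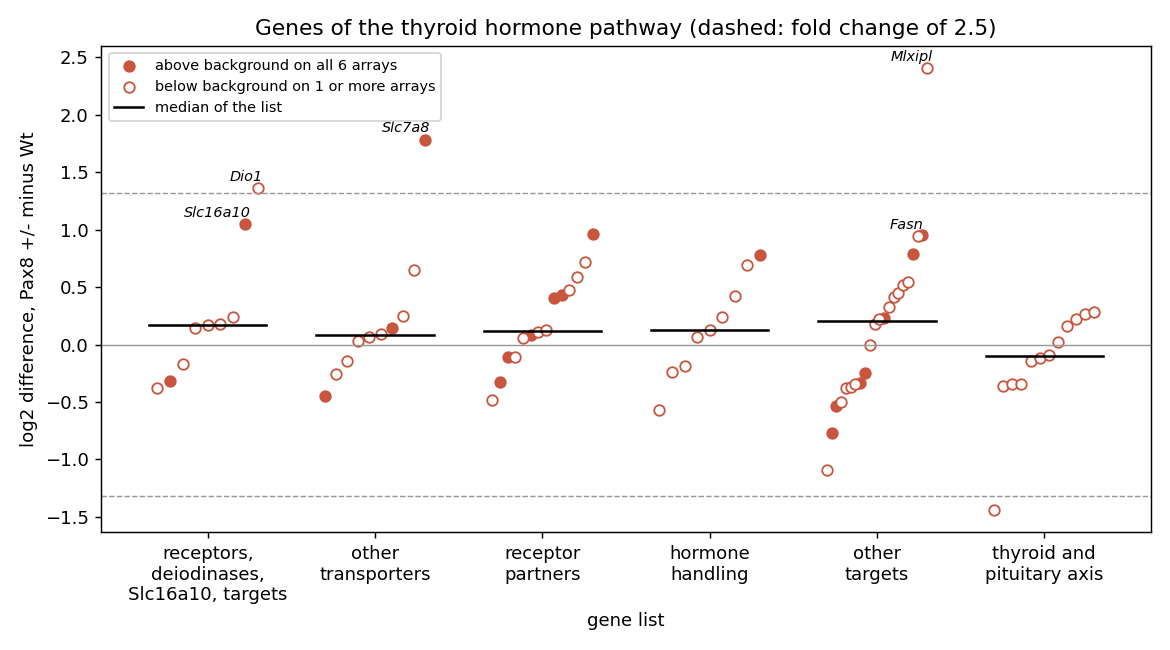
Log2 difference between group means, Pax8 +/- minus Wt (vertical axis), for each measured gene of the 9 genes and 5 further lists (horizontal axis). Filled points were above background on all 6 arrays, bars are list medians, and Slc7a8 and Mlxipl are the only genes shown that passed the thresholds of the study.

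In the list of thyroid, pituitary and hypothalamic genes, 0 of 12 measured reached an unadjusted p of 0.05, beside 5.91% of all probe sets. Their median difference was -0.10, and 11 were below background on all 6 arrays. Duoxa2, a maturation factor of the oxidase that makes peroxide for hormone synthesis, was the exception to background and only on Wt replicate 2, at 8.88. Its other readings were 5.60 and 5.05 in Wt and 7.23, 4.33 and 3.65 in Pax8 +/- islets. This puts all 6 arrays in their order by the mean of the hypoxia targets, which is also their order by the mean of the duct markers. The endothelial, mesenchymal and immediate early lists differed from it only in the order of Pax8 +/- replicates 2 and 3. The part of these lists in the readings of Duoxa2 was not tested. The difference of -1.44 did not pass. Without Wt replicate 2 it was -0.25 and without Pax8 +/- replicate 3 it was -0.73, while it was -2.17 without Wt replicate 3 and, past the thresholds of the study, -2.52 without Pax8 +/- replicate 1. Nkx2-1 differed by -0.34 among readings under background.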

How the data were processed

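RNA of pancreatic islets from 3 Wt and 3 Pax8 +/- samples, grouped and numbered from the sample titles, was measured on Clariom S arrays. For each array the authors deposited RMA-normalized log2 values, already comparable between arrays. RMA and, without a version, the Transcriptome Analysis Console stand in the submitters' processing notes. The genome build of the array annotation was not given in the sources used here, and no array position is printed. Of 28846 rows, 5222 negative and 1418 other control probe sets were left out and 22206 gene probe sets kept, with no filter on level, of which 19572 had 1 gene symbol and 2634 are unnamed here. All 9 genes had 1 probe set. List genes absent by symbol were looked for through Entrez Gene in a RefSeq table of GRCm38.p6.

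The groups were compared by limma's moderated test (version 3.58.1, under R 4.3.3), fitted 2-sided and without covariates at 4.32 prior degrees of freedom, over all gene probe sets, with Benjamini-Hochberg adjustment over all of them. Fold changes are differences of mean log2 values, and the fold change threshold of the study was applied to these. The fit was tested on simulated data. Named are the 9 genes, list genes at an unadjusted p of at most 0.05 and the 2 with the smallest p of each list, and for genes above background on all arrays the 3 probe sets of highest Pearson r. Nr1d1, and list genes named to describe a list, fall outside this rule. The members and lists were chosen with earlier results of these data known. Alternatives were other moderation, normalization, filters, thresholds and background percentiles, a Tukey biweight (constant 5), the replicate number as a block and each array left out, and, added after seeing the data, the brightest GC background probe set.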

Additional observations from a re-analysis of the deposited data

How the results depend on the processing

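With all 6 arrays in the fit and weighted alike, none of the 9 genes passed the study's thresholds under any moderation, normalization, filter or fold change tried. Array weights called 1 of them, Dio1, and the leave-outs called 0 to 2. Over all probe sets, 222 genes passed. This count was 35 without moderation, 800 with array weights, 63 among probe sets above background on at least 3 arrays, 351 with a Tukey biweight, 518 at a fold change of 2, 1312 without a fold change, and 43 to 1337 in the leave-outs, with 29 at an adjusted p under 0.05 in limma without Pax8 +/- replicate 1. With the replicate number as a block, 348 genes and 0 of the 9 passed. Deviations from the group means of same-numbered arrays had r = 0.004, -0.42 and 0.14, and none of the 3 Wt arrays correlated best with its own number. Such deviations sum to 0 within each group, so that this check cannot decide whether the numbers pair the samples. Above the 99th percentile of the negative controls on all arrays were 0 of the 9 genes, instead of 2. The sign of Dio3 turned with a Tukey biweight (-0.11). It turned in leave-outs for Thra (-0.035 to 0.39), Thrb (-0.24 to 0.53), Dio3 (-0.025 to 0.40) and Hr (-0.43 to 0.13), all near or below background. Mlxipl also lost its call without moderation, under quantile normalization and with either filter on dim probe sets, and Slc7a8 with the filter on background. The cause was not tested. Each of the 9 genes had 1 probe set, so that no other probe set could be tried.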
